A study of Macaca fascicularis with 34 samples.

Results

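The genes followed here build the meiotic chromosome, and they were followed through cells taken before meiosis. SYCP1, SYCP2, SYCP3, HORMAD1, REC8, STAG3, SMC1B, MEIOB and SPATA22 are 9 of the 28551 genes in the deposited table, chosen by name, with earlier results of these data known. Of these, 8 were matched by the human symbol that the table pairs with each gene. MEIOB was matched by its macaque symbol, since the table gives its human counterpart under the older name C16orf73.

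In meiosis each chromosome is folded along a protein axis. Cohesin rings with meiosis-specific subunits (REC8, STAG3, SMC1B) hold the sister chromatids to that axis, SYCP2, SYCP3 and HORMAD1 build it, and SYCP1 then zips paired axes together into the synaptonemal complex. MEIOB and SPATA22 bind each other and coat single-stranded DNA at meiotic breaks. STRA8, induced by retinoic acid, is the switch that commits a germ cell to meiosis. In males of mammals this step waits until after birth, at the onset of spermatogenesis.

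The cells were single cells of the cynomolgus monkey (Macaca fascicularis, subspecies fascicularis), read by SC3-seq, a method that sequences the 3' ends of amplified cDNA. The 9 male gonad cells came from embryonic day (E) 36 (6 cells), E47 (1 cell) and E55 (2 cells). The 25 embryo cells, whose sex is not given, were 3 from E13, 1 from E14, 11 from E16, 2 from E17 and 8 from E20. All groups carried no stated treatment or genetic change. No animal is named, so each stage counts as 1 sample, cells are not replicates, and no difference below has a p-value. Values are in RPM, reads relative to the library total of the cell, a mean carries the SD over cells, and a difference is between means of log2(RPM + 1). A gene was called at 2-fold, a difference of 1, if it averaged at least 1 RPM in 1 of the groups, and a gene was counted as detected in a cell at 15 RPM. RPM is not corrected for gene length, so levels are compared between cells and not between genes.

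The labels give no cell type. Clusters were therefore built without the 9 genes and without the other meiosis lists described here. Cell type markers outside those lists were not left out. All 9 gonad cells and 17 embryo cells fell in the same cluster. It was named germ-cell-like because germ cell markers minus mesoderm markers had the higher mean in it. The marker counts given here therefore describe that name and do not test it. In this cluster 15 of 15 germ cell markers averaged at least 15 RPM, and 12 had a median at that level. So did the means of 6 of 10 mesoderm markers and 6 of 8 epiblast markers. Of the germ cell markers, DAZL had 0 reads and DDX4 averaged 0.558 RPM in the 17 embryo cells of this cluster. The 8 embryo cells outside it were E16 cell 8 and E20 cells 1 to 7. In them 9 of 15 germ cell markers, 10 of 10 mesoderm markers and 4 of 8 epiblast markers averaged at least 15 RPM. Cluster membership changed with the settings for E17 cell 2 and the E14 cell only. The cells held 472189 to 3556591 reads each, fewest at E13, where no cell passed 775709 reads. The following 3 gonad cells were rich in transcripts of gonadal somatic cells: E36 cell 5 had 8 of 16 somatic markers at 15 RPM or more, the E47 cell 13 and E55 cell 2 7. Their summed somatic marker level was 702 to 22176 RPM, against 36.9 to 477 RPM in the other 6 gonad cells and 27.9 to 656 RPM in embryo cells.

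STRA8 had 0 reads in every cell. Over the 34 cells that is 0 of 64126125 reads, which allows up to 0.0468 RPM, and over the gonad cells alone up to 0.198 RPM. SPO11, the enzyme that makes meiotic breaks, and RAD21L1, another meiotic cohesin subunit, also had 0 reads in all 34 cells. PRDM9, which places the breaks, had 3 reads in embryo cells and 0 in gonad cells, and the recombinase gene DMC1 had 2 reads in gonad cells and 51 in embryo cells.

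Without any STRA8 read, every one of the 9 genes had reads, both in gonad cells, where 58.7% of all genes had any, and in embryo cells, where 72.4% did. In the gonad, all reads of SYCP1, SYCP2, HORMAD1, SMC1B and REC8 lay in the cells rich in somatic transcripts. The germ-cell-like embryo cells had reads of 8 members, since the only SYCP1 read in embryo cells was 1 read in E16 cell 8, outside that cluster. How many cells held reads of a member differed widely. SYCP3, SPATA22 and MEIOB were read in most gonad cells, and SYCP3, REC8 and MEIOB in most embryo cells. SYCP1, SYCP2, HORMAD1 and SMC1B had reads in 2 to 4 cells each of all 34. At 15 RPM or more, 6 members were found in at least 1 gonad cell and 6 in at least 1 embryo cell. Of all genes in the table, 40.7% did so in gonad cells and 48.8% in embryo cells. At least 15 RPM in 50% or more of the cells was reached by 2 members in gonad cells (SPATA22 and SYCP3), where 21.0% of all genes passed, and by 1 member in embryo cells (REC8), where 22.5% of all genes passed. In the germ-cell-like embryo cells alone, 2 members passed (REC8 in 11 and SYCP3 in 9 of 17 cells), against 22.1% of all genes. After all cells were thinned to 450000 reads, SYCP3 fell short of 50% in both groups, with 4 of 9 gonad cells and 8 of 17 germ-cell-like embryo cells.

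**Figure D1:**
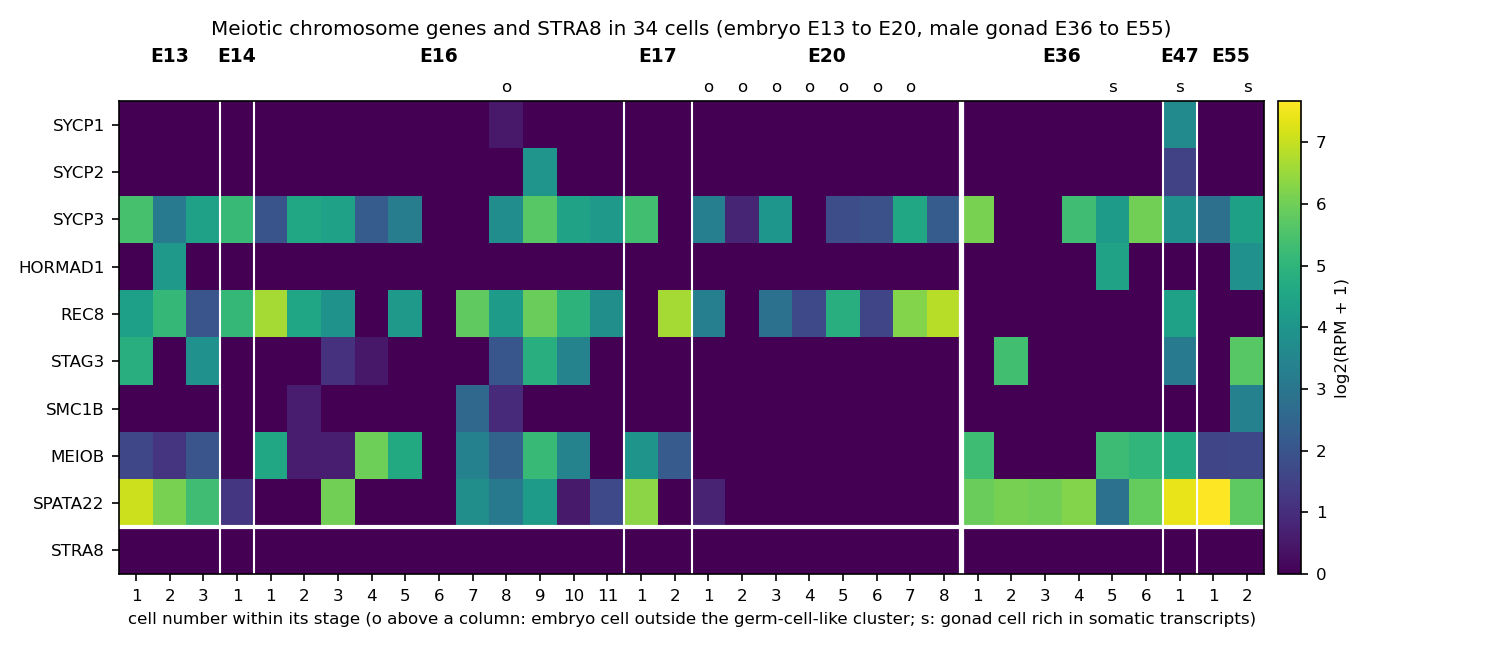
Level of the 9 members and STRA8, as log2(RPM + 1) on the colour scale, in each of 34 cells ordered by stage, with embryo cells left of the thick line and gonad cells right of it. SPATA22 is bright at E13 and across the gonad cells and dark at E20, REC8 is read in 21 of 25 embryo cells and in 1 of 9 gonad cells, and the STRA8 row is empty.

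SYCP3, a scaffold protein of the chromosome axis (gene 102121878 of the table, chromosome 11), was the member read in the most cells. It had reads in 7 of 9 gonad cells and 21 of 25 embryo cells. At E13 the 3 cells had 42.4, 7.73 and 20.0 RPM, and the E14 cell had 35.1 RPM. The 11 E16 cells ran from 0 to 49.98 RPM with a median of 12.5 RPM, the E17 cells had 39.9 and 0 RPM, and the 8 E20 cells ran from 0 to 23.3 RPM with a median of 3.21 RPM. In the gonad, the 6 E36 cells ran from 0 to 69.0 RPM with a median of 28.2 RPM, the E47 cell had 13.6 RPM, and the E55 cells had 6.15 and 19.6 RPM. Cells at 0 and cells well above 15 RPM stood side by side within E16, E17 and E36. Every cell of E13, E14, E47 and E55 had reads. Gonad cells averaged 25.5 ± 26.2 RPM and embryo cells 14.4 ± 14.6 RPM (SD, n = 9 and 25 cells), a difference of 0.58 that fell short of 2-fold, and the 2 groups overlapped. By mean level the stages ran E14, E36, E13, E17, E16, E47, E55, E20 from high to low, and no 2 neighbours in that order differed by more than the larger SD of the pair. E14 and E47 are 1 cell each and have no SD, so the SD of the other stage was used for them.

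SYCP2, the partner of SYCP3 in the axis (gene 101865416, chromosome 10), was almost silent. It had 47 reads (14.9 RPM) in E16 cell 9 and 2 reads (1.81 RPM) in the E47 cell, and 0 in the other 32 cells. Thus the cell with the highest embryo level of SYCP3 was also the only embryo cell with SYCP2. SYCP1, the zipper protein of the synaptonemal complex (gene 102136382, chromosome 1), had 13 reads (11.8 RPM) in the E47 cell and 1 read in E16 cell 8. The 17 germ-cell-like embryo cells had 0 SYCP1 reads, which allows up to 0.0804 RPM.

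HORMAD1, an axis protein that marks chromosomes not yet paired (gene 101867396, chromosome 1), had reads in 3 cells. E36 cell 5 had 20.4 RPM (60 reads), E55 cell 2 had 13.8 RPM (19 reads) and E13 cell 2 had 16.8 RPM (13 reads). The other 31 cells were at 0, among them all cells of E14, E16, E17, E20 and E47. The pooled gonad reads stood 19.6-fold above those of embryo cells (95% Poisson interval 10.8 to 38.5, counting error only). The fold was 5.86 without E36 cell 5, which held 60 of the 79 gonad reads, and at least 83.7 without E13 cell 2, which held all embryo reads. E36 cell 5 and E55 cell 2 are both among the 3 gonad cells rich in somatic transcripts. The other 6 gonad cells had 0 of 9729753 reads, which allows up to 0.308 RPM. The mean log2 difference was 0.76 and not called, because 7 of 9 gonad cells had no read.

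REC8, the meiotic kleisin that closes the cohesin ring (gene 101926363, chromosome 7), was the embryo member of the set. At E13 the cells had 19.1, 33.5 and 3.08 RPM and at E14 33.8 RPM. The 11 E16 cells ran from 0 to 97.3 RPM with a median of 17.5 RPM, the E17 cells had 0 and 97.5 RPM, and the 8 E20 cells ran from 0 to 114.0 RPM with a median of 7.66 RPM. All 6 E36 cells and both E55 cells were at 0, and the E47 cell had 20.0 RPM (22 reads). REC8 was thus read at every embryo stage, while in the gonad a single cell held all of its reads. By mean level the stages ran E17, E14, E16, E20, E47, E13, and then E36 and E55 at 0, and the step below E13 alone exceeded the larger SD of its pair.

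Gonad cells averaged 2.22 ± 6.65 RPM of REC8 and embryo cells 29.9 ± 33.9 RPM (SD, n = 9 and 25 cells). The difference of -3.29 was called, and the pooled gonad level was 23.7-fold lower. REC8 reached 15 RPM in 1 of 9 gonad cells and 14 of 25 embryo cells. After thinning these counts were 1 and 13. Leaving out the E47 cell removed every gonad read, and the pooled level was then at least 161-fold lower. In the 6 gonad cells that were not rich in somatic transcripts, 0 of 9729753 reads were REC8, which allows up to 0.308 RPM. Within the germ-cell-like cluster the embryo mean was 35.8 ± 36.6 RPM (SD, n = 17 cells) and the difference -3.61. The 2 E17 cells are the only embryo cells that share the gonad cells' label code, a code in the sample names whose meaning is not stated, and against them the difference was -2.82. It rested on E17 cell 2, since it was 0.49 without that cell and -6.13 without E17 cell 1.

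The other meiotic cohesin subunits did not follow REC8. STAG3, which binds the kleisin (gene 101925375, chromosome 3), had 27.5, 0 and 13.8 RPM in the E13 cells. At E16 it ran from 0 to 27.8 RPM with a median of 0, and it had 0 reads at E14, E17 and E20. In the gonad, E36 cell 2 had 39.4 RPM and the other 5 E36 cells 0, the E47 cell had 8.16 RPM, and the E55 cells had 0 and 49.98 RPM. Gonad cells averaged 10.8 ± 19.6 RPM and embryo cells 3.35 ± 8.04 RPM (SD, n = 9 and 25 cells), a difference of 0.75 that was not called. Against the E17 cells alone it was 1.58, past 2-fold. SMC1B, the meiotic relative of SMC1A (gene 102137705, chromosome 10), had 13 reads (9.42 RPM) in E55 cell 2 and 15 reads in all embryo cells, 12 of them in E16 cell 7.

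Cohesin that serves ordinary cell division was present throughout. Of 13 measured mitotic cohesin genes, 12 reached 15 RPM in at least 50% of gonad cells and 12 in at least 50% of embryo cells. Of all genes, 21.0% and 22.5% did so. None was called higher and 3 were called lower in gonad cells, with a median difference of -0.44. Of all tested genes, 7.62% were called higher and 15.1% lower, at a median of -0.17. With the gonad cells rich in somatic transcripts left out, 6 were called lower, at a median of -0.95. In that comparison 7.40% of all genes were called higher and 25.5% lower, at a median of -0.39. The mitotic kleisin RAD21 averaged 232 ± 125 RPM in the gonad and 267 ± 147 RPM in the embryo (SD, n = 9 and 25 cells). SMC1A was called lower, at 61.3 ± 53.6 RPM in gonad and 127 ± 76.1 RPM in embryo cells, a difference of -1.15 that was -0.87 within the germ-cell-like cluster. STAG2, the ubiquitous relative of STAG3, averaged 104.1 ± 43.2 RPM in gonad and 144 ± 61.6 RPM in embryo cells, a difference of -0.42 that was not called. CDCA5 (sororin), which keeps sister chromatids joined until anaphase, had the largest fall among the genes named from this list, at 48.8 ± 53.3 RPM in gonad and 188 ± 179 RPM in embryo cells, a difference of -2.88.

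MEIOB (gene 101865668, chromosome 20) and SPATA22 (gene 102135360, chromosome 16) act as a pair in meiosis. Of 20 cells with a MEIOB read, 15 also had a SPATA22 read, but their levels differed from cell to cell. MEIOB had 2.12, 1.29 and 3.08 RPM at E13, each from 1 or 2 reads, and 0 at E14. The E16 cells ran from 0 to 62.04 RPM with a median of 9.30 RPM, the E17 cells had 14.6 and 3.57 RPM, and all 8 E20 cells were at 0. In the gonad, 3 E36 cells had 37.7, 37.4 and 32.1 RPM and the other 3 were at 0, the E47 cell had 25.4 RPM, and the E55 cells had 2.05 and 2.17 RPM. At E36, MEIOB was therefore either at 32.1 RPM or more, or unread. By mean level the stages ran E47, E36, E16, E17, E13, E55, and then E14 and E20 at 0, and the step below E55 alone exceeded the larger SD of its pair. E14, the next stage, is 1 cell without an SD, and the E55 SD of 0.0872 RPM came from 2 cells with 5 MEIOB reads in all. Gonad cells averaged 15.2 ± 17.4 RPM and embryo cells 7.72 ± 14.6 RPM (SD, n = 9 and 25 cells). The difference of 0.95 fell just under 2-fold. Within the germ-cell-like cluster it was 0.30, and against the E17 cells alone -0.46 (0.43 without E17 cell 1).

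SPATA22 was the only member called higher in gonad than in embryo cells, although the E13 cells also had high levels. The E13 cells had 135.5, 68.3 and 38.4 RPM, and the E14 cell 1.299 RPM. The E16 cells ran from 0 to 64.9 RPM with a median of 0.465 RPM, the E17 cells had 79.9 and 0 RPM, and at E20 a single read was found in 8 cells. In the gonad, the E36 cells ran from 6.45 to 74.3 RPM with a median of 62.4 RPM, the E47 cell had 169.6 RPM, and the E55 cells had 201.9 and 53.6 RPM. SPATA22 was thus present in all 3 E13 cells, scattered at E16 and E17, near absent at E20 and present in all 9 gonad cells. By mean level the stages ran E47, E55, E13, E36, E17, E16, E14, E20, and in that order the step from E14 to E20 alone exceeded the larger SD of its pair. E14 is 1 cell without an SD, so that step was set against the E20 SD only, and it is 3 reads against 1 read.

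Gonad cells averaged 83.9 ± 61.4 RPM of SPATA22 and embryo cells 17.2 ± 34.3 RPM (SD, n = 9 and 25 cells). The difference of 4.14 was called, and the pooled gonad level was 4.86-fold higher (95% Poisson interval 4.41 to 5.35). Levels of 15 RPM or more were found in 8 of the 9 gonad cells and 6 of the 25 embryo cells (8 and 7 after thinning). Within the germ-cell-like cluster the embryo mean was 24.8 ± 39.6 RPM and the difference 3.50. With the 3 cells rich in somatic transcripts left out, the gonad mean was 87.6 ± 56.3 RPM (SD, n = 6 cells) and the difference 4.46, and against the E17 cells alone it was 2.82. That last value also turned with a single cell, to -0.35 without E17 cell 2 and 5.99 without E17 cell 1. The groups overlapped, since the E13 cells lay within the gonad range.

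**Figure D2:**
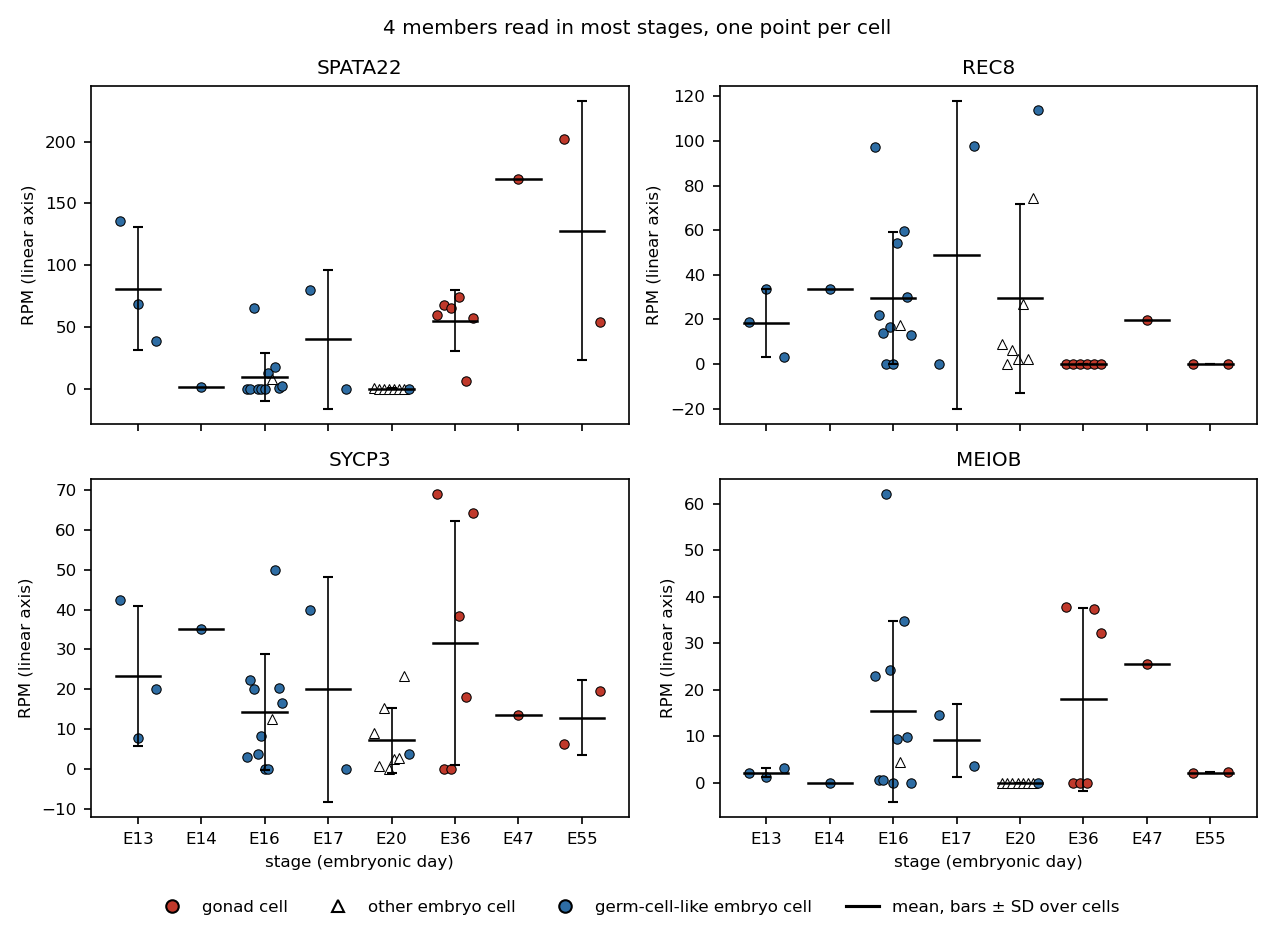
RPM of SPATA22, REC8, SYCP3 and MEIOB in each cell, by stage, with the mean (line) and SD over cells (bars, which reach below 0 where the spread exceeds the mean). All 9 gonad cells have SPATA22 reads, 8 of 9 lack REC8, and the 8 E20 cells have no MEIOB read.

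Of the 8 members measured in the comparison of gonad with embryo cells, 1 was called higher (SPATA22) and 1 lower (REC8). Over all 15245 genes tested, 7.62% were called higher and 15.1% lower. The median difference of the members was 0.67 and that of all genes -0.17. Without E36 cell 2 or without E36 cell 3, SYCP3 and MEIOB were called higher as well, so that 4 members were called. In this comparison stage, organ and, outside E17, label code cannot be told apart.

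How often members shared a cell differed by pair. SPATA22 and SYCP3 were both at 15 RPM or more in 9 cells, the most of any pair, with SPATA22 alone in 5 and SYCP3 alone in 7, and a Pearson r of 0.35 over 34 cells. MEIOB and SPATA22 were both at 15 RPM or more in 4 cells, SPATA22 alone in 10 and MEIOB alone in 4, and 16 cells had neither. Their log2 levels had an r of 0.21 over 34 cells, and of -0.03 over the 26 germ-cell-like cells. SPATA22 and REC8 were both detected in 4 cells and apart in 21, with an r of -0.35. All 4 cells with at least 15 RPM of STAG3 also had SPATA22 at that level. SYCP3 and REC8 were both detected in 6 cells, with an r of 0.02. These values describe cells that share stages, label codes and depth, and the low counts of many cells limit them.

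E16 cell 9 had the most members at 15 RPM or more, 5 in all (SYCP3, REC8, STAG3, MEIOB and SPATA22), and SYCP2 was read as well. E16 cell 6, of the same stage and label code and also germ-cell-like, had no read of any member among its 1933060 reads. E16 cell 8, outside the germ-cell-like cluster, had reads of 7 members, with 1 at 15 RPM or more. It also had the most genes at 15 RPM or more of all cells, 8106. In the gonad, more members were read in the cells rich in somatic transcripts. The 3 gonad cells rich in somatic transcripts had reads of 4, 7 and 6 members, against 1 to 3 in the other 6 gonad cells. All gonad reads of SYCP1, SYCP2, HORMAD1, SMC1B and REC8 lay in those 3 cells. The same 3 cells also had more genes at 15 RPM or more, 6789 to 8016 against 5233 to 6842 in the other 6 gonad cells. The part of somatic transcripts in these reads was not tested.

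**Figure D3:**
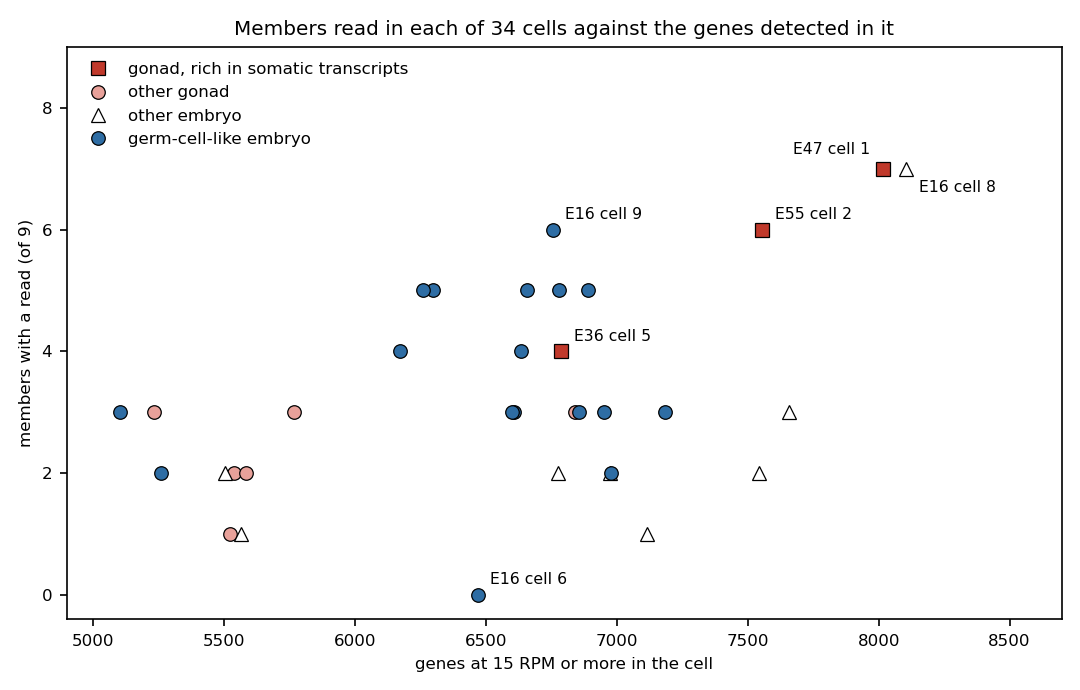
Number of the 9 members with at least 1 read in each cell, against the number of genes at 15 RPM or more in that cell. The gonad cells rich in somatic transcripts (squares) lie above the other gonad cells, and E16 cells 6 and 9 span 0 to 6 members at similar gene numbers.

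In E20 against E16 cells, 0 of 6 measured members were called higher and 3 lower (SPATA22, STAG3 and MEIOB). Over all genes tested 13.9% were higher and 18.9% lower. The members' median difference was -0.94, and that of all genes was -0.12. MEIOB had 0 of 12141367 reads at E20 and 15.3 ± 19.5 RPM at E16 (SD, n = 8 and 11 cells), a difference of -2.80 and a pooled level at least 65.0-fold lower. SPATA22 had 1 read at E20 and 340 at E16, a difference of -1.67. Most of the E16 reads came from E16 cell 3, without which the difference was -1.24. STAG3 was at 0 at E20 and its difference of -1.08 rested on single cells. It was -0.71 without E16 cell 9, -0.85 without E16 cell 10 and -0.99 without E16 cell 8. REC8 averaged 29.4 ± 42.3 RPM at E20 and 29.5 ± 29.6 RPM at E16, a difference of -0.56 that was not called, although it was -1.05 without E20 cell 8.

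Stage and cell type move together here, since 7 of 8 E20 cells lie outside the germ-cell-like cluster and 10 of 11 E16 cells lie in it. E20 cell 8 is the sole germ-cell-like cell of its stage and the only E20 cell with the label code of the E16 cells. It had 0 reads of MEIOB, SPATA22 and STAG3 and the highest REC8 level of all cells, 114.0 RPM. Among embryo cells, SPATA22 averaged 1.04 ± 2.67 RPM outside the germ-cell-like cluster and 24.8 ± 39.6 RPM in it (SD, n = 8 and 17 cells), a called difference of -2.01. MEIOB averaged 0.559 ± 1.58 RPM outside the cluster and 11.1 ± 16.8 RPM in it, also a difference of -2.01. REC8 averaged 17.3 ± 24.9 RPM outside the cluster and 35.8 ± 36.6 RPM in it, a difference of -1.01. The REC8 call was marginal and was lost without E17 cell 2 (-0.85) and without several other single cells, down to -0.56 without E20 cell 2. All MEIOB reads outside the cluster and 17 of the 18 SPATA22 reads were in E16 cell 8. No member was called higher in them, where 20.9% of all genes were higher and 11.6% lower. SYCP3 averaged 8.26 ± 8.31 RPM outside the cluster and 17.2 ± 16.2 RPM in it, a difference of -0.79 that was not called. It was read in 7 of the 8 cells outside the cluster, and REC8 likewise in 7 of 8, so reads of these genes were not confined to germ-cell-like cells.

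In E16 against E13 cells, 1 of 7 measured members was called higher (MEIOB) and 4 lower (SPATA22, SYCP3, HORMAD1 and STAG3). Over all genes tested 23.3% were higher and 17.2% lower, and the medians were -1.19 for the members and 0.20 for all genes. SPATA22 averaged 9.60 ± 19.3 RPM at E16 and 80.8 ± 49.7 RPM at E13 (SD, n = 11 and 3 cells). Its difference of -4.41 stayed called without any single cell, although the pooled fold of 5.97 lower became 16.2 lower without E16 cell 3. The other 4 calls were lost when 1 cell was left out. HORMAD1 rested on E13 cell 2 alone. STAG3 went to -0.86 without E13 cell 1, and SYCP3 to -0.64. By pooled reads SYCP3 was only 1.33-fold lower at E16, and 1.16-fold higher without E13 cell 1. MEIOB averaged 15.3 ± 19.5 RPM at E16 and 2.16 ± 0.894 RPM at E13, a difference of 1.18 that ran from 0.87 to 0.999 without E13 cell 2 or E16 cell 4, 5 or 9. E13 has a label code of its own and the lowest depth, so stage, code and depth cannot be told apart.

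In E55 against E36 cells, 4 of 6 measured members were called higher (SPATA22, HORMAD1, SMC1B and STAG3) and 0 lower. The background was high, with 40.8% of all genes called higher and 10.3% lower, and the median was 1.21 for the members and 0.67 for all genes. SPATA22 averaged 128 ± 105 RPM at E55 and 55.04 ± 24.6 RPM at E36 (SD, n = 2 and 6 cells), a difference of 1.21. It was 0.26 without E55 cell 1 and 0.68 without E36 cell 5. The calls of HORMAD1, SMC1B and STAG3 all came from E55 cell 2. Without that cell HORMAD1 stood at -0.74 and STAG3 at -0.89, and SMC1B had no read in either group. MEIOB averaged 2.11 ± 0.0872 RPM at E55 and 17.9 ± 19.7 RPM at E36, a difference of -0.96 that was not called, with a pooled level 9.27-fold lower.

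Other genes of the meiotic programme were grouped in lists drawn up with earlier results of these data known. Their counts in gonad against embryo cells stand beside the 7.62% of all genes called higher and 15.1% lower. Each list was also read against the germ-cell-like embryo cells alone, where 23.0% of all genes were called in either direction, at a median of -0.10. A further reading left out the 3 somatic-rich gonad cells. There 7.40% of all genes were called higher and 25.5% lower, at a median of -0.39. Both of these readings of the lists were added after seeing the data.

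In gonad against embryo cells, 2 of 4 measured genes of break formation were called higher and 0 lower: MEI4, a partner of SPO11, averaged 8.28 ± 9.70 RPM in gonad and 1.18 ± 4.26 RPM in embryo cells, and ZCWPW1, a reader of PRDM9 marks, 14.9 ± 20.8 RPM in gonad and 6.26 ± 13.2 RPM in embryo cells (SD, n = 9 and 25 cells). Within the germ-cell-like cluster MEI4 stayed called, with a difference of 1.496, ZCWPW1 was not, at 0.74, and CCDC36 (IHO1), another gene of this step, named after its value was seen, was called lower at -1.27. Of 11 measured genes of strand exchange, 3 were called higher and 3 lower. MND1, which aids DMC1 in strand invasion, averaged 114 ± 72.8 RPM in gonad and 84.4 ± 80.4 RPM in embryo cells, with a difference of 1.17 that was 0.39 within the germ-cell-like cluster. There, 4 of 12 measured genes of the list were called in either direction. RPA3 and RPA2, of the general single-strand binding complex that MEIOB and SPATA22 join in meiosis, differed by -0.25 and -0.48 and were not called.

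Of 8 measured crossover and mismatch repair genes, 2 were called higher and 1 lower. HFM1, a meiotic helicase, averaged 23.8 ± 41.5 RPM in gonad and 4.13 ± 11.6 RPM in embryo cells, and TEX11, a crossover gene, 7.21 ± 9.38 RPM in gonad and 2.56 ± 8.38 RPM in embryo cells (SD, n = 9 and 25 cells). TEX11 differed by 0.30 without the 3 somatic-rich gonad cells and was then not called. Among 4 measured genes of the axis and cohesin beside the members, SGOL2, which protects REC8 cohesin at centromeres, was called lower at 3.48 ± 5.84 RPM in gonad and 51.8 ± 56.5 RPM in embryo cells. TRIP13, the enzyme that strips HORMAD proteins from axes and also serves the mitotic checkpoint, was called lower as well, at 37.9 ± 40.9 RPM in gonad and 130 ± 74.6 RPM in embryo cells. BRDT, also in this list, is a chromatin reader of the testis and not itself an axis or cohesin protein. It was called higher at 16.4 ± 27.5 RPM in gonad and 2.22 ± 6.94 RPM in embryo cells. All 3 calls stood within the germ-cell-like cluster and without the 3 somatic-rich gonad cells. HORMAD2, the relative of HORMAD1, had 0 reads in gonad cells and 125 in embryo cells.

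None of 5 other measured synaptonemal complex genes and none of 6 telomere and pairing genes was called in either direction. SYCE1, of the central element, averaged 1.09 ± 2.25 RPM in gonad and 1.47 ± 4.21 RPM in embryo cells (SD, n = 9 and 25 cells). SUN1, which ties telomeres to the nuclear envelope, averaged 52.7 ± 47.4 RPM in gonad and 72.2 ± 55.3 RPM in embryo cells, and was lower by more than 2-fold within the germ-cell-like cluster (-1.254) and without the 3 somatic-rich gonad cells (-1.65). In that last comparison 3 of 5 measured telomere and pairing genes were called, 1 higher and 2 lower, against 7.40% and 25.5% of all genes.

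**Figure D4:**
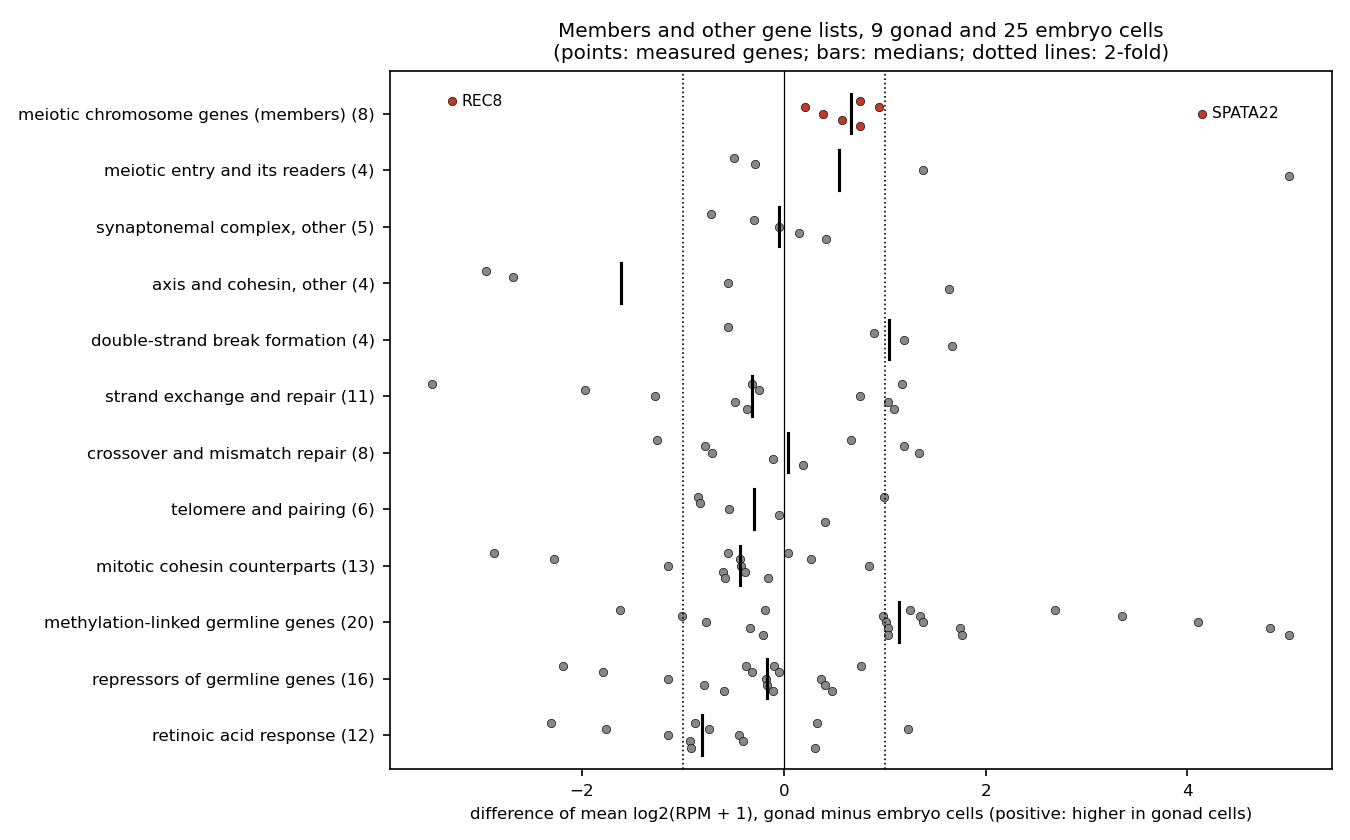
Difference of mean log2(RPM + 1) between gonad and embryo cells for each measured member and each measured gene of 11 other lists, with the number of measured genes after each list name and the list's median as a bar. Among the members SPATA22 lies at 4.14 and REC8 at -3.29, and the other 6 lie between the dotted 2-fold lines.

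Germline genes outside the chromosome machinery were measured as well. Of 20 measured germline genes that are known to be held silent by DNA methylation, 13 were called higher in gonad cells and 2 lower, with a median difference of 1.14. The median was 1.07 within the germ-cell-like cluster, where 14 were called in either direction. Without the 3 somatic-rich gonad cells it was 0.65, and 9 were called higher and 4 lower, against 7.40% and 25.5% of all genes. DAZL, an RNA-binding protein that licenses germ cells for meiosis, had 1010 reads in gonad cells and 1 read in embryo cells, and DDX4, a germ cell helicase, averaged 79.1 ± 55.8 RPM in gonad and 0.514 ± 1.68 RPM in embryo cells (SD, n = 9 and 25 cells). In the list of meiotic entry genes, where DAZL also stands, 2 of 4 measured genes were called higher and 0 lower. RBM46, an RNA-binding protein needed for meiotic prophase in mice, was the other, at 62.6 ± 58.1 RPM in gonad and 37.9 ± 48.4 RPM in embryo cells, but within the germ-cell-like cluster its difference was 0.53 and only DAZL was called.

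Of 16 measured repressors of germline genes, 0 were called higher and 3 lower, near the share of all genes called lower, and their median of -0.17 was like that of all genes. DNMT1, which maintains DNA methylation, averaged 34.8 ± 31.7 RPM in gonad and 140 ± 95.7 RPM in embryo cells (SD, n = 9 and 25 cells), a difference of -2.18. SETDB1, a histone methyltransferase, averaged 120 ± 65.3 RPM in gonad and 114 ± 78.5 RPM in embryo cells and was not called.

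Of 12 measured retinoic acid genes, 1 was called higher and 3 lower, with a median of -0.81. This direction did not stand against germ-cell-like embryo cells alone, where the list had a median of 0.18 and 5 genes were called in either direction. Without the 3 somatic-rich gonad cells 0 of 11 were called higher and 8 lower, with a median of -1.24. Of all genes, 7.40% were then called higher and 25.5% lower, at a median of -0.39. The gene called higher was ALDH1A1, an enzyme that makes retinoic acid, with 169 reads in gonad cells and 5 in embryo cells, but all 169 were in the 3 somatic-rich gonad cells. CRABP1 and CRABP2, which carry retinoic acid in the cytoplasm, were called lower with differences of -2.31 and -1.76. Within the germ-cell-like cluster CRABP1 was still called lower, at -2.33, while CRABP2 stood at 0.24.

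Over the 34 cells, the levels most like that of SPATA22 among 9590 genes were those of DRAM1, GTSF1 and NLRP7, with Pearson r of 0.73, 0.71 and 0.70. For REC8 they were SH3GL3, FAM54A and C19orf12, with r of 0.67, 0.64 and 0.63. For MEIOB they were EZH1, LUC7L3 and BMPR1B (0.59, 0.59 and 0.57), and for SYCP3 IFRD1 and LSM1 (0.59 and 0.58). No other member was at 15 RPM in 5 or more cells. By Spearman's rho, EZH1 stayed in first place for MEIOB and DRAM1 came second for SPATA22, whereas IFRD1 dropped to place 301 for SYCP3. By Pearson r over the 26 germ-cell-like cells, EZH1 fell to place 14 and DRAM1 to place 3, whereas IFRD1 held place 1 with an r of 0.81. The cells share stages, label codes and depth, and these values describe likeness of level only.

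Gene models bear on what some of these reads are. In a later RefSeq table (assembly T2T-MFA8v1.1), used here for names only, the gene ID that the deposited table calls SPATA22 is named TRPV3, and the models of SPATA22, TRPV3 and ASPA overlap. The deposited table has separate rows for TRPV3, read in 1 cell (E55 cell 1, 16.4 RPM), and for ASPA, with 0 reads in all 34 cells. REC8 overlaps IPO4, a nuclear import gene, whose level peaked at 597 RPM in E36 cell 1, where REC8 had no read. MEIOB overlaps FAHD1, at its highest, 162 RPM, in E20 cell 8, where MEIOB had none, and SYCP3 overlaps CHPT1, at its highest, 77.5 RPM, in E20 cell 5 against 2.53 RPM of SYCP3. Whether reads were counted by strand is not stated, so reads of overlapping genes cannot be told apart with certainty.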

How the data were processed

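The authors deposited 1 table of 28551 genes in 34 single cells. Its log2(RPM + 1) values, as deposited by the authors, were turned back into RPM, which gave column totals of 992085 to 995711. Small values came in equal steps of 1 read, from which reads were recovered, with 99.7% to 100% of low values whole within 0.1 read. The submitters' processing notes name cutadapt 1.3, TopHat 1.4.1 and Cufflinks 2.2.0 without their roles, with genome build, annotation and strand setting not given in the sources used here. Reads carry no molecular identifiers, so Poisson intervals (95%) and limits from a count of 0 (3 reads of the pooled depth) cover counting error only.

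Groups follow the labelled stage. No animal is named, so no test was made between groups, and differences are described by means of log2(RPM + 1) over cells and by ratios of pooled reads. Clusters came from the 1000 most variable genes outside the members and the other lists compared (Ward linkage, 2 clusters). Cell type markers outside those lists were not left out, and germ cell and mesoderm markers then named the clusters. The recovery of reads and the 2-fold calls were tested on simulated data that held counting error only. Those data had no further spread between cells of a group. They therefore do not show how the 2-fold calls hold for genes that vary from cell to cell, as the members do. The 9 members and all lists were chosen with earlier results of these data known. All members and STRA8 were named. From each other list at most 4 genes were named, by highest mean RPM among those detected in 50% of gonad or embryo cells or called between them, beside genes that define the list. Genes alike in level were the 3 with the highest Pearson r among 9590, for members detected in at least 5 cells. Some genes that these rules name are not reported here. Alternatives were the pseudocount (0.1, 10), medians, ratios of means, no filter, rescaling, thinning to 450000 reads, other detection limits, subsets of cells and each cell left out. Of the gene IDs, 19340 were found in a RefSeq table. Python 3.11.15, numpy 2.4.6, pandas 2.3.3, scipy 1.17.1 and matplotlib 3.10.9 were used.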

Additional observations from a re-analysis of the deposited data

Results flagged for a closer look

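Within the stages of 4 to 10 cells, E20 and E36, 8 sets of member values were screened for 1 cell standing apart, by its gap to the nearest cell over the whole range, and 4 such cells were found. Chance alone flags about 1 in 20 sets of continuous values, a rate that does not carry over to 3 of these 4 sets, in which every other cell was at 0. In those 3 sets the gap equals the whole range, so the only cell with reads was flagged by construction. SPATA22 in E20 cell 1 was highest at 0.687 RPM, which is 1 read, with the other 7 cells at 0. SPATA22 in E36 cell 5 was lowest at 6.45 RPM (19 reads), with the next cell at 56.9 RPM. HORMAD1 in E36 cell 5 was highest at 20.4 RPM (60 reads), with the other 5 cells at 0. E36 cell 5 is also the E36 cell rich in somatic transcripts, with 8 of 16 somatic markers detected. STAG3 in E36 cell 2 was highest at 39.4 RPM (32 reads), with the other 5 cells at 0.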

How the results depend on the processing

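No paired analysis was possible because replicate numbers only name cells in accession order. In gonad against embryo cells 2 members were called, 5 with a pseudocount of 0.1 or with the ratio of mean RPM, and 2 to 4 with 1 cell left out. SPATA22 and REC8 were called under all of these. Against a single E17 cell, alternatives chosen after seeing the data, 4 were called without E17 cell 1, and without E17 cell 2 SPATA22 turned to -0.35 and REC8 to 0.49. In E20 against E16, 3 were called, 1 with a pseudocount of 10, and 2 to 4 with 1 cell left out. In E16 against E13, 5 were called, 1 with a pseudocount of 10, 3 with medians over cells, and 3 to 5 with 1 cell left out. In E55 against E36, 4 were called, 1 with a pseudocount of 10, 2 without cells rich in somatic transcripts, and 1 to 5 with 1 cell left out. There STAG3 turned to -1.07 without the cells rich in somatic transcripts and ran from -0.89 (without E55 cell 2) to 4.78 with 1 cell left out, and HORMAD1 from -0.74 (without E55 cell 2) to 3.15. Members detected in 50% of embryo cells numbered 1, but 3 by any read, 2 at 5 RPM, 0 at 50 RPM, 6 in at least 1 cell, 0 in 80% of cells, and 2 among germ-cell-like cells, with or without E17 cell 2 (also chosen after seeing the data). With 1 cell left out the count was 1 throughout. In gonad cells 2 were detected, 1 at 50 RPM, 6 in at least 1 cell, 1 in 80% of cells, 1 after thinning, and 2 to 3 with 1 cell left out. Of the single-member differences under the alternatives, 765 kept their direction or moved by less than the spread between cells, 17 moved by more and 5 reversed. A pseudocount of 10 lowers the difference of low genes by its construction, and the causes of the other changes were not tested. At these depths 15 RPM is 7.08 to 53.3 reads per cell.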
